A study of Mus musculus with 9 samples.

Results

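The genes described here are 32 mouse genes of the germline and of meiosis, measured in J1 embryonic stem cells, a line that is neither testis nor ovary. They were chosen by name: a probe belongs to a gene when its accession maps to the gene's symbol, and where several probes do, the brightest over the arrays was used. All 32 had a probe on the array, and 29 passed the filter on dim probes, among 26875 features tested from 55681 probes. J1 cells, a line of strain 129S4/SvJae labelled as derived from the inner cell mass, grew on gelatin in medium with 1000 U/mL of LIF, the cytokine that maintains pluripotency, in every group. For 24 h they received DMSO alone, 3 µM CHIR99021, which inhibits the kinase GSK3 and so activates Wnt signalling, or 1 mM AICAR, which is converted to an AMP mimic and activates the kinase AMPK. Each group has 3 arrays. The labels number them without naming separate cultures, so p-values here reflect only how much these samples vary, and that variation may be technical.

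Meiosis pairs homologous chromosomes, holds them together with meiosis-specific cohesin and the synaptonemal complex, and repairs programmed DNA breaks by recombination between homologues. In the male germline, Piwi proteins loaded with small piRNAs silence transposons, and Tudor-domain proteins and RNA helicases make and carry these RNAs. Pluripotent cells transcribe a number of these genes at some level, and several of them are known to be held low there by promoter DNA methylation and by the repressor complex PRC1.6, in which E2F6 and the pair MGA and MAX bind DNA. The core of the E2F6 site is TCCCGC, and MGA with MAX binds the E-box CACGTG.

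Because these motifs lie close to the start of many germline genes, the 250 bases upstream of the annotated start are shown for some of the members described below. They are RefSeq sequence of assembly GRCm38.p6, read 5′ to 3′ on the gene's strand, and 28 of the 32 members had an entry. Capitals mark each CACGTG and each TCCCGC, the latter on either strand, so that GCGGGA is its reverse complement. Ddx4 (chr13:112652311-112652560, minus strand), Mael (chr1:166238745-166238994, minus strand) and Sycp3 (chr10:88459337-88459586, plus strand) held both motifs. Smc1b (chr15:85131958-85132207, minus strand) and Dmc1 (chr15:79605110-79605359, minus strand) held TCCCGC alone, Mov10l1 (chr15:88982744-88982993, plus strand) held CACGTG alone, and Stra8 (chr6:34920698-34920947, plus strand) held neither. Zcwpw1 and Dpep3, whose sequences are not shown, also held neither.
Ddx4: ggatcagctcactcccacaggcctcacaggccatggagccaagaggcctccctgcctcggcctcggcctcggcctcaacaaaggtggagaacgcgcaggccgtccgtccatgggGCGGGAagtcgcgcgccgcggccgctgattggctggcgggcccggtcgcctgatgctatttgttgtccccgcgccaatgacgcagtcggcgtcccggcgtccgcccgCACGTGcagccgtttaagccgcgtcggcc
Mael: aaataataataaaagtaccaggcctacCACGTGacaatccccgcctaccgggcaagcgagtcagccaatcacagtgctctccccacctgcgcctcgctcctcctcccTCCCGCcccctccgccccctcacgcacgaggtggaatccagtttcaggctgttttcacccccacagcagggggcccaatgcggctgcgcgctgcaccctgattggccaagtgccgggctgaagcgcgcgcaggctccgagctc
Sycp3: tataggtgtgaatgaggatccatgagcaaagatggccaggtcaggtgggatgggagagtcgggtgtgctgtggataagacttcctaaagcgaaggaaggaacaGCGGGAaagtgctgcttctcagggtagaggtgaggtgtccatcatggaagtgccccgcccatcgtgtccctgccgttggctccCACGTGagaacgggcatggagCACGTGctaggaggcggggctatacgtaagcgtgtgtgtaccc
Smc1b: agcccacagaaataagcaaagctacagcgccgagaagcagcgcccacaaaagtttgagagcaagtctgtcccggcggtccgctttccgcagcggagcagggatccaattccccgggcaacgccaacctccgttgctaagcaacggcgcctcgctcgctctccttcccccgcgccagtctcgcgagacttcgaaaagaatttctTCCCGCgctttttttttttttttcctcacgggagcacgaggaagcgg
Dmc1: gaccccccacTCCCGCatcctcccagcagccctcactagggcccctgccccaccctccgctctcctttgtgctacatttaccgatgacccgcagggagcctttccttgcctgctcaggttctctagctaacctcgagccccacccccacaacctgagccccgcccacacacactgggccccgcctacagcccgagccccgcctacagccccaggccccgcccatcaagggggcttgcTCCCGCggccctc
Mov10l1: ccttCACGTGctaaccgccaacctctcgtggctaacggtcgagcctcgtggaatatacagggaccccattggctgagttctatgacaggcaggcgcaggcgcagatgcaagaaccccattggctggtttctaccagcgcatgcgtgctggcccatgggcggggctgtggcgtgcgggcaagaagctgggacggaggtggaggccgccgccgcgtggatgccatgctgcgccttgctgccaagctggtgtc
Stra8: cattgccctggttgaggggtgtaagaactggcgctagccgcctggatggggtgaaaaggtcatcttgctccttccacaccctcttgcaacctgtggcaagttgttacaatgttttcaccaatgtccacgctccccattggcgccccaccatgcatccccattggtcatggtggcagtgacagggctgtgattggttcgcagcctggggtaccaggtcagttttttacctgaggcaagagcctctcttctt

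CACGTG, which is its own reverse complement, was present upstream of 14 of the 28 members with an entry, or 50.0%, against 6.86% of 27025 genes in the same RefSeq table. These members are Ddx4, Sycp1, Sycp3, Syce2, Stag3, Hormad1, Mael, Tdrd1, Tdrd9, Mov10l1, Fkbp6, Taf7l, Slc25a31 and Brdt. TCCCGC on either strand was present in 9 members, or 32.1%, against 18.8% of genes, and the members are Ddx4, Sycp3, Syce2, Smc1b, Rec8, Hormad1, Dmc1, Mael and Tex14. The member windows were rich in CG, with a median of 16 CG per window against 6 over all windows. Among windows with 15 or more CG, CACGTG was in 68.4% of 19 member windows against 9.81% of 8970 windows, whereas TCCCGC was in 36.8% against 42.8%. Windows are not genes here: Hormad1 and Fkbp6 each entered with overlapping windows that share their CACGTG sites. The motifs overlapped each other in 0 of the 34 member windows. The 13 tested members with CACGTG had a median log2 change from DMSO of -0.05 with CHIR99021 and 0.24 with AICAR. The 13 without it had -0.55 and 0.11. For TCCCGC the medians were -0.36 and 0.07 in the 9 members with it, and -0.32 and 0.23 in the 17 without. A match describes these letters only, and the part of the motifs in the members' changes was not tested.

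Levels are given as a percent of the array's 75th percentile of processed signal over spots that are not controls, in the order of replicates 1 to 3. A level belongs to its probe and is not set against that of another gene. The words rose and fell are used where the adjusted p of the fit was under 0.05. Changes are log2 differences with the standard error of the fit, with n = 3 arrays a group. The arrays were alike in detection and scale, with 62.8% to 67.2% of spots well above background and a 75th percentile between 567.3 and 617.4. The spike-in controls, in log2 relative to their mean over the arrays, differed more within the AICAR group. They were at -0.105, 0.045 and -0.28 on its arrays, and at 0.016 to 0.092 on the DMSO and CHIR99021 arrays. Scaling on these controls, used below as an alternative, therefore does not move the AICAR arrays evenly. The 3 arrays of a group shared 1 slide and 1 scan that held no other group, so slide and treatment cannot be told apart in any comparison. In bulk RNA, a change in the number of cells that express a gene cannot be told apart from a change in the RNA per cell.

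With CHIR99021, 7 of the 29 tested members rose and 15 fell, where 51% of all features were called, 30.4% as higher and 20.5% as lower. The members' median log2 change was -0.32 (-0.14 with normexp background correction) against 0.07 over all features, and 0 rose and 4 fell at least 2-fold (Stra8, Zcwpw1, Dpep3 and Tex11), where 3.84% of features rose and 3.94% fell that far. With AICAR, 11 members rose and 7 fell, where 60.5% of features were called, 30.9% as higher and 29.6% as lower, and the members' median was 0.11 (0.24 under spike-in scaling and 0.17 in the deposited series values) against 0.03. Here 2 rose at least 2-fold, Smc1b and Mov10l1, and 0 fell, where 6.96% and 5.34% of features did. Both comparisons use the same DMSO arrays, so the difference between the treatments was tested directly. In CHIR99021 against AICAR, 6 members were higher and 18 lower, where 60.8% of features were called, 36.2% as higher and 24.6% as lower, with a median of -0.43 against 0.10. At least 2-fold, 1 member was higher (Tex15) and 7 were lower (Ddx4, Smc1b, Dmc1, Tdrkh, Asz1, Mov10l1 and Dpep3), where 5.26% and 8.31% of features were. Scaled on spike-in controls, 13 members rose and 5 fell with AICAR, and 2 were higher and 18 lower in CHIR99021 against AICAR. That scaling moved the median of all features by -0.07 for CHIR99021 relative to DMSO, by 0.13 for AICAR relative to DMSO and by -0.19 between the treatments. Of the called features, 48.7%, 66.6% and 34.7% were then higher, in place of 59.7%, 51.1% and 59.5%.

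**Figure D1:**
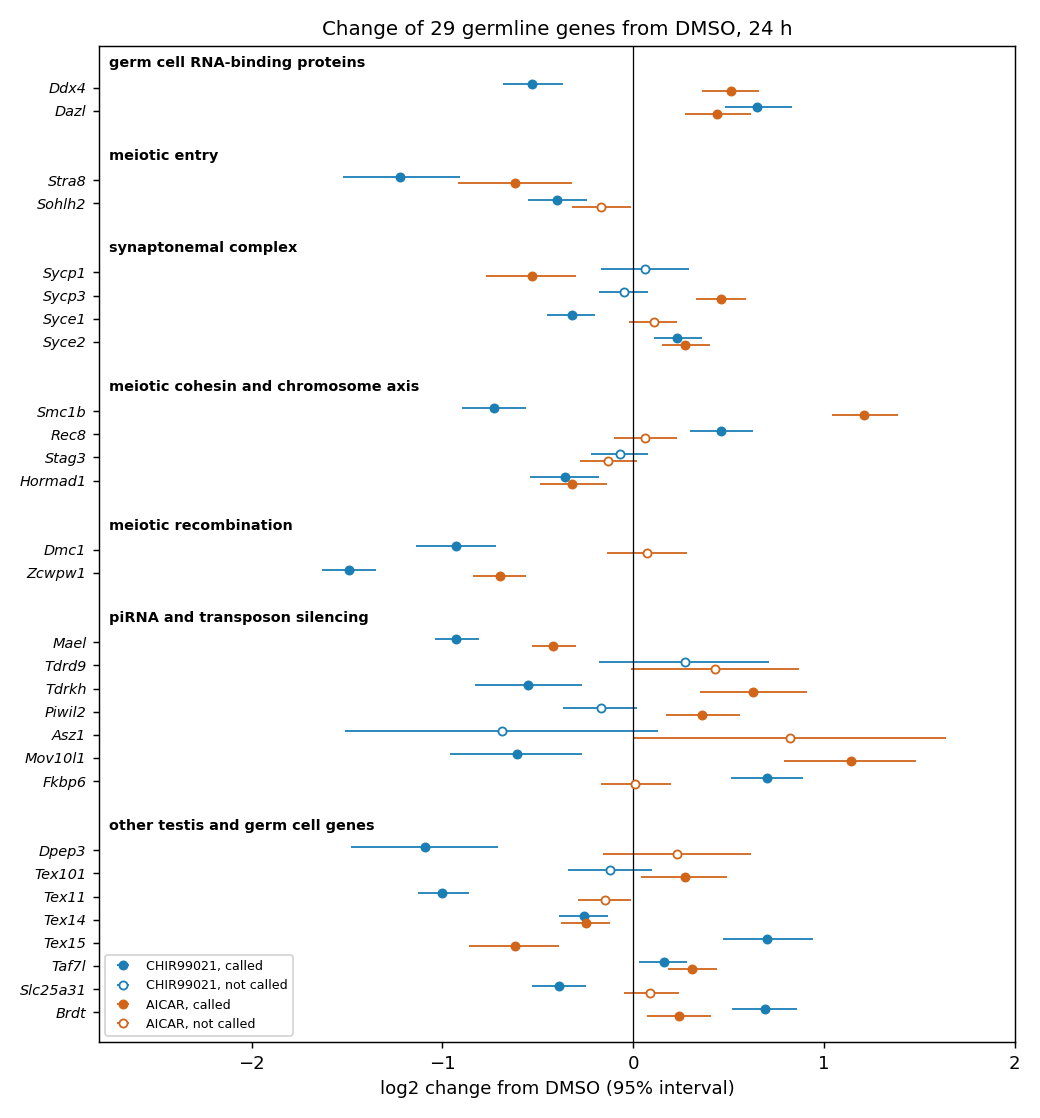
The log2 change from DMSO of the 29 tested germline genes after CHIR99021 (blue) and AICAR (orange), grouped by role, with 95% intervals of the limma fit and n = 3 arrays a group. Filled points passed adjusted p under 0.05. With CHIR99021, 15 genes lie below 0 and 7 above it among the filled points; with AICAR, 7 lie below and 11 above.

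Compared array by array, 7 members had all CHIR99021 arrays above all DMSO arrays and 16 had them all below, where 37.4% and 25.8% of features did. For AICAR against DMSO the counts were 12 and 9, where the shares of features were 34.3% and 32.8%. For CHIR99021 against AICAR they were 5 and 18, where the shares were 38.8% and 26.6%.

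Ddx4, the Vasa RNA helicase of germ granules, was measured at 183.1%, 207.1% and 203.5% in DMSO, at 140.6%, 138.2% and 133.0% with CHIR99021, and at 263.7%, 286.8% and 294.5% with AICAR. The groups did not overlap: every CHIR99021 array was below and every AICAR array above the DMSO arrays. Ddx4 fell by 0.53 ± 0.07 with CHIR99021 (adjusted p = 0.000366) and rose by 0.51 ± 0.07 with AICAR (adjusted p = 0.000293). The direct difference was -1.04 ± 0.07 (adjusted p = 5.18e-06). Dazl, an RNA-binding regulator of translation that germ cells need, read 163.9%, 156.3% and 159.4% in DMSO. It rose to 267.4%, 236.8% and 251.3% with CHIR99021 (0.65 ± 0.07, adjusted p = 0.000205) and to 215.3%, 200.9% and 238.1% with AICAR (0.44 ± 0.07, adjusted p = 0.00113). The treated groups of Dazl overlapped each other. Their difference of 0.21 (95% interval 0.04 to 0.38, adjusted p = 0.0382) passed the threshold in the fit of all arrays. It did not pass without any single DMSO array (adjusted p = 0.0536 to 0.0574), CHIR99021 replicate 1 (adjusted p = 0.123) or 3 (adjusted p = 0.081), or AICAR replicate 1 (adjusted p = 0.0845) or 2 (adjusted p = 0.116). With spike-in scaling it was 0.01, after quantile normalization 0.12 (adjusted p = 0.227) and in the deposited series values 0.11 (adjusted p = 0.24).

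Stra8, the factor that retinoic acid induces to start meiosis, was measured at 6302%, 5678% and 5068% in DMSO. It read 2599%, 2060% and 2706% with CHIR99021 and 3301%, 4032% and 3763% with AICAR, with no overlap between any of the groups. Stra8 fell by 1.22 ± 0.13 with CHIR99021, or 2.32-fold (adjusted p = 0.000153), and fell by 0.62 ± 0.13 with AICAR, or 1.54-fold (adjusted p = 0.00384). CHIR99021 was lower than AICAR by a log2 difference of -0.60 ± 0.13 (adjusted p = 0.0044). Sohlh2, a basic helix-loop-helix factor of differentiating germ cells, was at 346.0%, 334.3% and 327.1% in DMSO, 245.9%, 269.9% and 249.6% with CHIR99021 and 320.0%, 301.3% and 276.0% with AICAR. It fell by 0.40 ± 0.07 with CHIR99021 (adjusted p = 0.00165). With AICAR its change was -0.17 (95% interval -0.32 to -0.01, adjusted p = 0.0583). Its AICAR arrays were all below its DMSO arrays, and the change passed without AICAR replicate 1 (-0.22, adjusted p = 0.0254) and when only probes above background on all 9 arrays were tested (adjusted p = 0.0498). The difference between the treatments, -0.23 (adjusted p = 0.0182), was lost without CHIR99021 replicate 1 (adjusted p = 0.0625) or 3 (adjusted p = 0.0551) or AICAR replicate 1 (adjusted p = 0.0519), and was -0.42 under spike-in scaling.

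**Figure D2:**
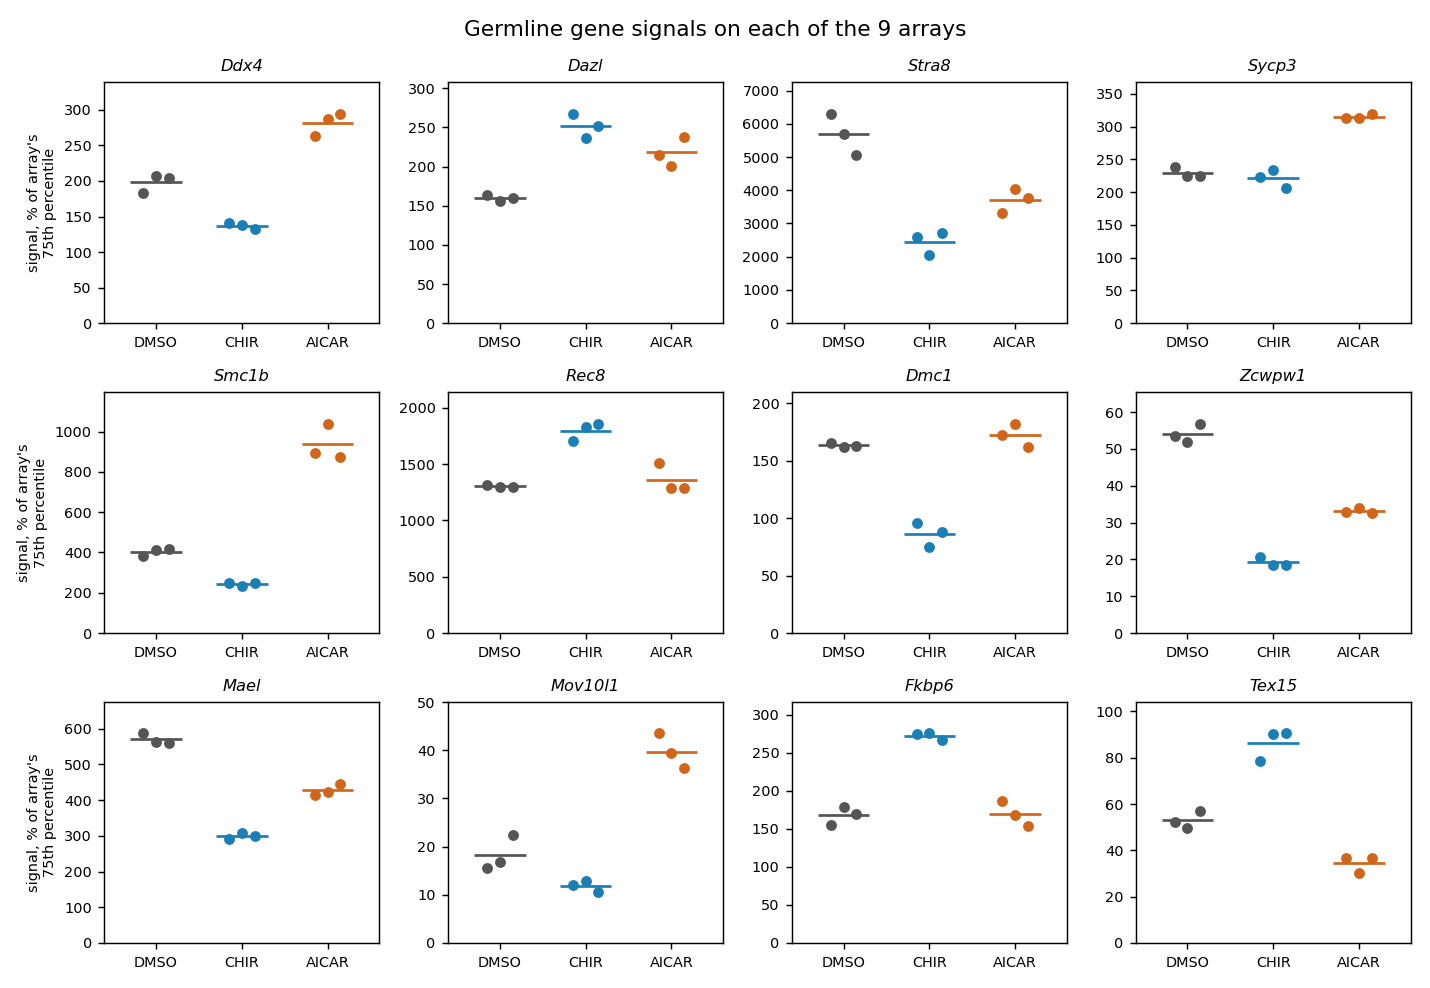
Signal of 12 germline genes on each of the 9 arrays (points; lines are means of 3 arrays), as a percent of the array's 75th percentile, with each axis starting at 0. Ddx4, Smc1b and Mov10l1 lie below DMSO with CHIR99021 and above it with AICAR, Tex15 the other way round, and Stra8, Zcwpw1 and Mael lie below DMSO with both agents.

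Since Stra8 answers to retinoic acid in germ cells, the retinoic acid pathway was examined as a list of 17 genes, all of which passed the filter. The part of this pathway in the changes of Stra8 was not tested. With CHIR99021, 3 rose and 7 fell, where 30.4% and 20.5% of all features did. With AICAR 7 rose and 8 fell, where 30.9% and 29.6% did. The receptor gene Rarg fell by 1.11 ± 0.10 with CHIR99021 (adjusted p = 5.02e-05) and fell by 0.91 ± 0.10 with AICAR (adjusted p = 9.32e-05). Rara, which encodes another retinoic acid receptor, fell by 0.94 ± 0.06 with CHIR99021 (adjusted p = 1.48e-05) and fell by 0.49 ± 0.06 with AICAR (adjusted p = 0.0003). Crabp2, a cytoplasmic carrier of retinoic acid, fell by 1.97 ± 0.11 with CHIR99021. The retinaldehyde dehydrogenase gene Aldh1a2 rose by 1.08 ± 0.10 with the same agent. With AICAR, Cyp26b1, whose enzyme degrades retinoic acid, rose by 1.10 ± 0.17, and Rdh10, whose enzyme oxidises retinol, fell by 0.99 ± 0.17. Aldh1a3, another retinaldehyde dehydrogenase gene, was well above background on 1 DMSO, 0 CHIR99021 and 3 AICAR arrays. It passed the filter through its AICAR arrays, and it was at least 4.73-fold lower with CHIR99021 than with AICAR. Here and below, "at least" sets the brighter group's mean against the dimmer group's detection floor or own signal, whichever is higher. It does not allow for the spread of the arrays and is not the lower end of an interval.

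The synaptonemal complex genes did not move together. Sycp1 encodes the transverse filament that links paired chromosomes. It read 50.1%, 47.8% and 49.5% in DMSO, 52.0%, 52.2% and 49.5% with CHIR99021, and 30.7%, 31.5% and 40.5% with AICAR. Only its AICAR arrays stood apart, all of them low: it fell by 0.53 ± 0.10 (adjusted p = 0.00223), with a change of 0.06 under CHIR99021 (95% interval -0.17 to 0.29). Sycp3, a component of the chromosome axis, read 237.9%, 225.3% and 225.4% in DMSO, 223.0%, 234.5% and 206.8% with CHIR99021, and 313.4%, 312.8% and 319.7% with AICAR. Again only the AICAR arrays stood apart, here all of them high: Sycp3 rose by 0.46 ± 0.06 (adjusted p = 0.000215), with a change of -0.05 under CHIR99021 (95% interval -0.18 to 0.08). In the direct comparison Sycp1 was higher with CHIR99021 by 0.59 ± 0.10 (adjusted p = 0.00119; 0.40 with adjusted p = 0.0515 under spike-in scaling) and Sycp3 lower by a difference of -0.51 ± 0.06 (adjusted p = 0.000104).

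The central element genes also differed from each other. Syce1 was at 1020%, 1043% and 1025% in DMSO, 798.1%, 866.5% and 807.1% with CHIR99021 and 1159%, 1055% and 1118% with AICAR. It fell by 0.32 ± 0.05 with CHIR99021 (adjusted p = 0.00161), and its change with AICAR was 0.11 (95% interval -0.02 to 0.23, adjusted p = 0.116; 0.25 with adjusted p = 0.00374 after quantile normalization). Syce2 was at 2460%, 2427% and 2677% in DMSO, 2865%, 3065% and 2948% with CHIR99021 and 2980%, 3091% and 3061% with AICAR. All treated arrays of Syce2 were above all DMSO arrays. It rose by 0.23 ± 0.05 with CHIR99021 (adjusted p = 0.00812) and by 0.27 ± 0.05 with AICAR (adjusted p = 0.00282). The rise with CHIR99021 was 0.17 (adjusted p = 0.194) under spike-in scaling, and the rise with AICAR was 0.46 after quantile normalization. The treatments differed by -0.04 (95% interval -0.17 to 0.08), which quantile normalization moved to -0.26 (adjusted p = 0.00511). Sycp2, an axis partner of Sycp3, did not pass the filter: it was well above background on 1 of 9 arrays, with 0.558% to 2.38% over all arrays.

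Smc1b, the meiosis-specific SMC subunit of cohesin, had the largest direct difference between the treatments among the 29 tested members. It read 382.2%, 410.9% and 415.7% in DMSO, 246.2%, 234.0% and 247.1% with CHIR99021, and 893.6%, 1040% and 876.2% with AICAR. Every CHIR99021 array was below and every AICAR array above the DMSO arrays. Smc1b fell by 0.73 ± 0.07 with CHIR99021 (adjusted p = 0.000116) and rose by 1.21 ± 0.07 with AICAR, or 2.32-fold (adjusted p = 5.03e-06). The treatments differed by -1.95 ± 0.07, or 3.85-fold (adjusted p = 4.59e-07). Its partner subunits moved otherwise. Rec8, the meiotic kleisin that is cut when chromosomes separate, was at 1314%, 1295% and 1296% in DMSO, 1702%, 1825% and 1859% with CHIR99021 and 1508%, 1288% and 1287% with AICAR. Its CHIR99021 arrays were the high ones: Rec8 rose by 0.46 ± 0.07 (adjusted p = 0.00105). With AICAR its change was 0.06 (95% interval -0.10 to 0.23), and 0.22 with adjusted p = 0.0244 after quantile normalization. The difference of 0.40 between the treatments was 0.21 (adjusted p = 0.188) under spike-in scaling and 0.18 (adjusted p = 0.0549) after quantile normalization.

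Stag3, the meiotic SA-type cohesin subunit, was at 404.4%, 386.3% and 402.9% in DMSO, 369.0%, 398.9% and 370.3% with CHIR99021 and 393.5%, 353.7% and 342.7% with AICAR, and its groups overlapped. Its changes were -0.07 (95% interval -0.22 to 0.08) and -0.13 (95% interval -0.28 to 0.02), and the latter passed without AICAR replicate 1 (-0.19, adjusted p = 0.022). Hormad1, an axis protein that monitors pairing, was at 451.3%, 444.2% and 441.2% in DMSO, 341.6%, 357.3% and 344.3% with CHIR99021 and 316.6%, 369.2% and 392.4% with AICAR. It fell by 0.36 ± 0.08 with CHIR99021 (adjusted p = 0.00563) and by 0.32 ± 0.08 with AICAR (adjusted p = 0.00806), the latter becoming -0.19 (adjusted p = 0.189) under spike-in scaling. Its other probe fell by 0.55 ± 0.07 with CHIR99021 and changed with AICAR by -0.15 ± 0.07 (adjusted p = 0.0839 over all kept probes). On either probe all AICAR arrays were below all DMSO arrays, and the difference between the probes was not tested. Between the treatments Hormad1 differed by -0.04 (95% interval -0.22 to 0.14), or -0.22 (adjusted p = 0.0271) as the mean of the probes. For comparison, 12 genes of mitotic cohesin and its regulators gave 1 higher and 2 lower with CHIR99021, where 30.4% and 20.5% of all features were. With AICAR 7 were lower, where 29.6% of features were, and the other 5 did not pass. The 7 included the cohesin release factor gene Wapl, which fell by 0.72 ± 0.07, and the loader gene Nipbl, which fell by 0.53 ± 0.13.

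Both tested members of the recombination group were lower with CHIR99021. Dmc1, the meiotic strand exchange enzyme, was at 165.7%, 161.8% and 162.3% in DMSO, 96.1%, 75.1% and 87.6% with CHIR99021 and 172.7%, 182.2% and 161.4% with AICAR. The CHIR99021 arrays were low and the AICAR arrays overlapped DMSO. Dmc1 fell by 0.93 ± 0.09 with CHIR99021 (adjusted p = 9.55e-05), with a change of 0.07 under AICAR (95% interval -0.14 to 0.28). Its 3 probes gave changes of -0.93, -0.97 and -0.96 with CHIR99021 and 0.07, 0.01 and -0.05 with AICAR. Zcwpw1, a reader of the histone marks set at recombination hotspots, was at 53.4%, 52.0% and 56.9% in DMSO, 20.6%, 18.6% and 18.6% with CHIR99021 and 33.0%, 34.1% and 32.7% with AICAR. No groups overlapped. Zcwpw1 fell by 1.49 ± 0.06 with CHIR99021, or 2.81-fold (adjusted p = 9.66e-07), and by 0.70 ± 0.06 with AICAR (adjusted p = 2.82e-05), and the treatments differed by -0.79 ± 0.06 (adjusted p = 1.25e-05; -0.45 with normexp background correction). Spo11, whose enzyme makes the meiotic breaks, was well above background on 0 of 9 arrays, with 0.288% to 0.607%. In 14 genes of somatic homologous recombination, 5 rose and 3 fell with CHIR99021, where 30.4% and 20.5% of all features did. There was 1 rise under spike-in scaling and 1 fall without DMSO replicate 2. With AICAR 6 rose and 1 fell, where 30.9% and 29.6% of features did. The fall with AICAR was of Rpa1, a single-strand binding protein gene (-0.27 ± 0.05), and the rises with AICAR numbered 3 without DMSO replicate 2.

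**Figure D3:**
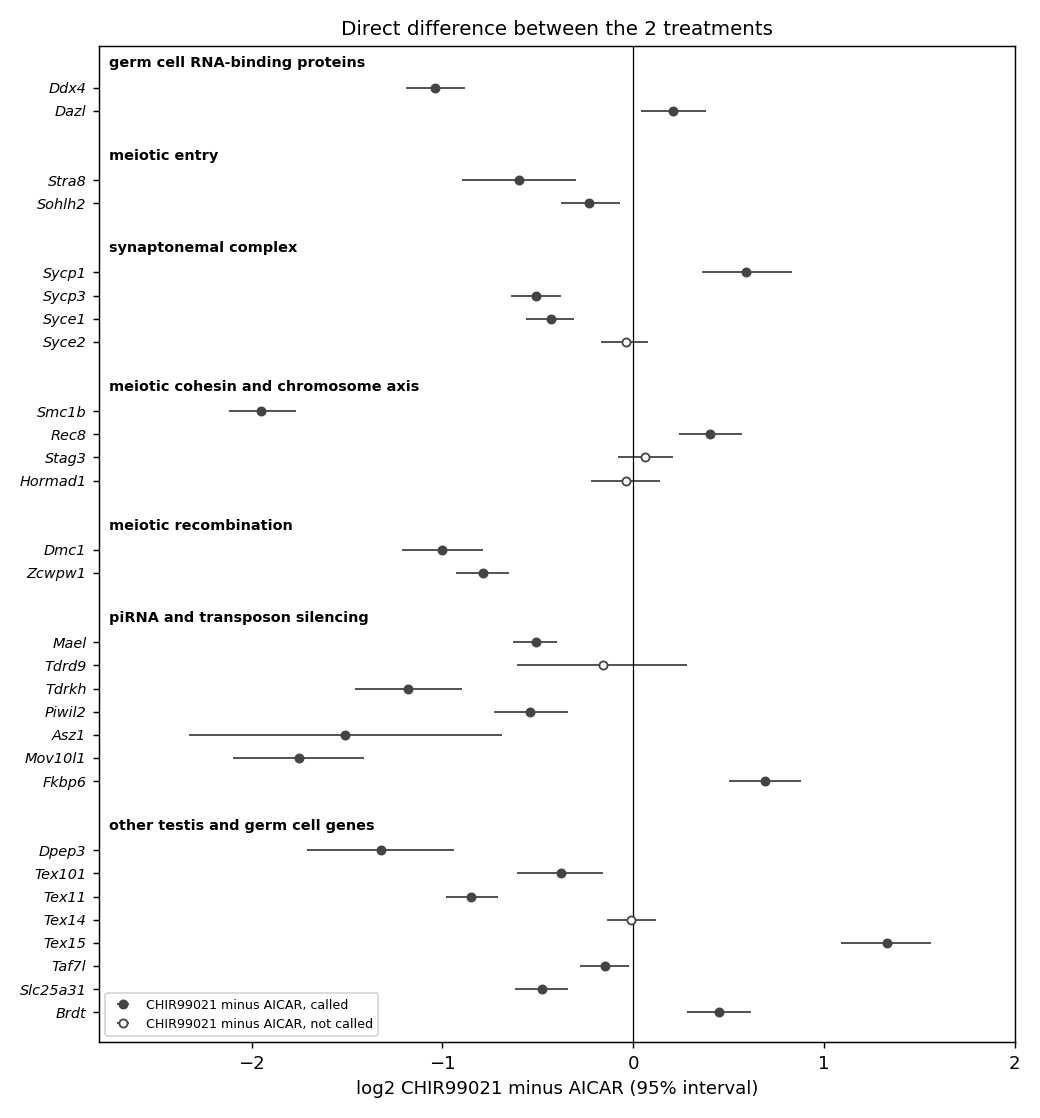
The direct log2 difference, CHIR99021 minus AICAR, for the 29 tested germline genes, with 95% intervals and n = 3 arrays a group. Filled points passed adjusted p under 0.05: 18 lie below 0, with Smc1b (-1.95) and Mov10l1 (-1.75) farthest out, and 6 lie above 0, with Tex15 (1.33) farthest out.

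In the piRNA group, Mael, a nuage protein needed to silence transposons, was at 587.1%, 563.2% and 560.7% in DMSO, 290.9%, 308.4% and 299.3% with CHIR99021 and 414.2%, 421.6% and 446.5% with AICAR. The groups did not overlap and DMSO was the highest. Mael fell by 0.93 ± 0.05 with CHIR99021, or 1.90-fold (adjusted p = 3.85e-06), and by 0.42 ± 0.05 with AICAR (adjusted p = 0.000177), and the treatments differed by -0.51 ± 0.05 (adjusted p = 4.89e-05). Mov10l1, the helicase that feeds piRNA precursors into the pathway, was at 15.5%, 16.7% and 22.5% in DMSO, 12.1%, 12.9% and 10.5% with CHIR99021 and 43.5%, 39.4% and 36.3% with AICAR. The groups were again apart, with AICAR the highest. Mov10l1 fell by 0.61 ± 0.15 with CHIR99021 (adjusted p = 0.00967) and rose by 1.14 ± 0.15 with AICAR, or 2.20-fold (adjusted p = 0.0003), and the treatments differed by -1.75 ± 0.15 (adjusted p = 2.38e-05). With normexp, which draws the changes of dim probes toward 0, the fall was -0.30 and the difference between the treatments -1.10.

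Tdrkh, a mitochondrial Tudor protein that helps trim piRNAs, was dim, at 6.67%, 6.62% and 7.79% in DMSO, 5.07%, 4.81% and 4.48% with CHIR99021 and 9.07%, 11.5% and 12.3% with AICAR. Its groups kept the order of those of Mov10l1 and did not overlap. It fell by 0.55 ± 0.12 with CHIR99021 (adjusted p = 0.00612) and rose by 0.63 ± 0.12 with AICAR (adjusted p = 0.0024), with -1.18 ± 0.12 between the treatments (adjusted p = 6.72e-05). Under normexp these values were -0.11 (adjusted p = 0.235), 0.35 and -0.46. Piwil2, the Piwi protein MILI, was at 58.0%, 51.9% and 50.8% in DMSO, 48.8%, 46.4% and 47.0% with CHIR99021 and 62.8%, 67.5% and 76.6% with AICAR. It rose by 0.36 ± 0.08 with AICAR (adjusted p = 0.00612). With CHIR99021 all arrays were below DMSO and the change was -0.17 (95% interval -0.37 to 0.02, adjusted p = 0.12). The treatments differed by -0.54 ± 0.08 (adjusted p = 0.000743).

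Asz1, a mitochondrial protein of the piRNA factory, varied widely among its DMSO arrays, at 8.04%, 5.20% and 2.69%, against 3.21%, 2.88% and 2.87% with CHIR99021 and 6.84%, 10.4% and 8.69% with AICAR. Its treated groups did not overlap each other, and both overlapped DMSO. Its changes from DMSO were -0.69 (95% interval -1.51 to 0.13, adjusted p = 0.138) and 0.82 (95% interval 0.00 to 1.64, adjusted p = 0.0776). The first passed without DMSO replicate 3 (-1.12, adjusted p = 0.00691) and the other without DMSO replicate 1 (1.19, adjusted p = 0.0111), with normexp (0.33, adjusted p = 0.0181) and under spike-in scaling (0.95, adjusted p = 0.0416). The treatments differed by -1.51 ± 0.35 (adjusted p = 0.00633; -0.42 with normexp). Fkbp6, an immunophilin with roles in piRNA loading and in synapsis, went the other way, at 155.3%, 179.1% and 169.0% in DMSO, 275.3%, 275.5% and 266.5% with CHIR99021 and 186.3%, 167.8% and 154.2% with AICAR. Its CHIR99021 arrays were all high and its AICAR arrays overlapped DMSO. Fkbp6 rose by 0.70 ± 0.08 with CHIR99021 (adjusted p = 0.000223), with 0.01 under AICAR (95% interval -0.17 to 0.20). Tdrd9, a Tudor-domain helicase, was at 2.77% to 5.50% over all arrays with overlapping groups. Its changes were 0.27 (95% interval -0.18 to 0.71) and 0.43 (95% interval -0.01 to 0.87), and the latter passed without DMSO replicate 2 (0.62, adjusted p = 0.0176) and under spike-in scaling (0.56, adjusted p = 0.0344). Tdrd1, a Tudor-domain scaffold of germ granules, was well above background on 0 of 9 arrays, with 0.339% to 1.83%.

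The last 8 members have other roles in testis or germ cells. With CHIR99021, 3 of them rose and 4 fell, where 30.4% and 20.5% of all features did, and with AICAR 3 rose and 2 fell, where 30.9% and 29.6% did. Tex15, which acts in meiotic break repair and in piRNA-guided silencing, was at 52.4%, 49.7% and 57.1% in DMSO, 78.5%, 90.2% and 90.5% with CHIR99021 and 36.8%, 30.0% and 36.8% with AICAR. It stood opposite to Ddx4 and Smc1b, with CHIR99021 the highest, AICAR the lowest and no overlap. Tex15 rose by 0.70 ± 0.10 with CHIR99021 (adjusted p = 0.000745) and fell by 0.62 ± 0.10 with AICAR (adjusted p = 0.00102), with a difference of 1.33 ± 0.10 (adjusted p = 1.35e-05). Its other probe was well above background on 0 of 9 arrays. Tex11, an X-linked crossover factor, was at 106.9%, 112.1% and 104.0% in DMSO, 51.6%, 56.8% and 53.6% with CHIR99021 and 96.5%, 92.9% and 101.9% with AICAR. It fell by 1.00 ± 0.06 with CHIR99021, or 2.00-fold (adjusted p = 6.59e-06). Its AICAR arrays were all below DMSO, with a change of -0.15 (95% interval -0.29 to -0.01, adjusted p = 0.0574) that passed without AICAR replicate 3 (-0.18, adjusted p = 0.039) and as the mean of the probes (-0.27, adjusted p = 0.0203). The dimmer Tex11 probe, well above background on 8 of 9 arrays, fell by 1.26 ± 0.14 with CHIR99021 and by 0.40 ± 0.14 with AICAR (adjusted p = 0.0389 over all kept probes).

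Brdt, the testis bromodomain protein that reads acetylated histones, rose on both probes, by different amounts. The brighter probe read 59.1%, 62.1% and 59.4% in DMSO, 103.6%, 100.4% and 88.8% with CHIR99021 and 72.2%, 66.5% and 75.4% with AICAR. The dimmer read 5.75%, 5.66% and 5.32% in DMSO, 21.7%, 17.0% and 21.1% with CHIR99021 and 7.76%, 9.63% and 8.93% with AICAR. Every treated array was above every DMSO array on either probe. The brighter probe rose by 0.69 ± 0.07 with CHIR99021 (adjusted p = 0.000147) and by 0.24 ± 0.07 with AICAR (adjusted p = 0.0211), and the dimmer by 1.83 ± 0.11 and 0.65 ± 0.11. The rise of the brighter probe with AICAR did not pass without DMSO replicate 1 (adjusted p = 0.062) or 3 (adjusted p = 0.0607), without AICAR replicate 1 (adjusted p = 0.0538) or 3 (adjusted p = 0.0668), or with normexp (0.19, adjusted p = 0.0509). The difference of 0.45 between the treatments was 0.25 (adjusted p = 0.115) under spike-in scaling.

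**Figure D4:**
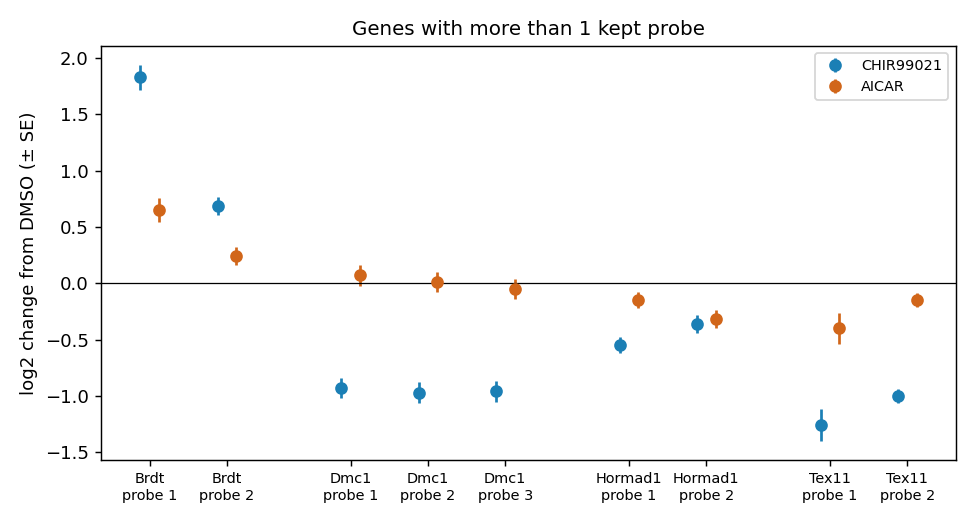
The log2 change from DMSO (± SE, n = 3 arrays a group) of each kept probe of the 4 members with more than 1 kept probe, after CHIR99021 (blue) and AICAR (orange). The 3 probes of Dmc1 lie between -0.97 and -0.93 with CHIR99021, and the Brdt probes lie at 1.83 and 0.69.

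Dpep3, a membrane dipeptidase of testis, was dim, at 7.65%, 7.83% and 8.55% in DMSO, 2.90%, 4.54% and 3.99% with CHIR99021 and 7.99%, 10.0% and 10.3% with AICAR. Its CHIR99021 arrays were the low ones: it fell by 1.09 ± 0.17 (adjusted p = 0.00102; -0.29 with normexp), with 0.23 under AICAR (95% interval -0.16 to 0.62). Slc25a31, the germ cell ADP/ATP carrier, fell by 0.39 ± 0.06 with CHIR99021, from 27.6% to 29.5% in DMSO to 21.0% to 22.6% (adjusted p = 0.00117; -0.19 with normexp), with 0.09 under AICAR (95% interval -0.05 to 0.24). Tex14, which builds the bridges between germ cells, was at 554.9%, 598.0% and 572.8% in DMSO, 478.2%, 495.5% and 465.2% with CHIR99021 and 507.6%, 461.3% and 480.3% with AICAR. It fell by 0.26 ± 0.06 with CHIR99021 (adjusted p = 0.00504) and by 0.25 ± 0.06 with AICAR (adjusted p = 0.00471), and the latter was -0.12 (adjusted p = 0.36) under spike-in scaling. The treated groups overlapped, with a difference of -0.01 (95% interval -0.14 to 0.12) that became -0.18 (adjusted p = 0.0226) after quantile normalization.

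For Taf7l and Tex101 some calls were close to the threshold. Taf7l, a testis form of a TFIID subunit, was at 507.7%, 520.4% and 489.9% in DMSO, 588.4%, 571.9% and 531.1% with CHIR99021 and 610.5%, 618.1% and 650.5% with AICAR. Its rise of 0.31 ± 0.06 with AICAR had an adjusted p of 0.00176. Its rise of 0.16 ± 0.06 with CHIR99021 (adjusted p = 0.0476) did not pass without any single DMSO array, without CHIR99021 replicate 1 or 2, or without AICAR replicate 1 or 2, with adjusted p of 0.0521 to 0.148 and changes of 0.12 to 0.18. It also did not pass after quantile normalization (0.07, adjusted p = 0.346), under spike-in scaling (0.09, adjusted p = 0.534), in the deposited series values (0.09, adjusted p = 0.22), without the filter on dim probes (adjusted p = 0.0607), with the replicate number as a block (adjusted p = 0.0905) or with DMSO and CHIR99021 fitted alone (adjusted p = 0.0604). Its difference of -0.15 between the treatments (adjusted p = 0.0432) did not pass without any single DMSO array, CHIR99021 replicate 2 or 3, or AICAR replicate 2 or 3, with adjusted p of 0.0572 to 0.137. Nor did it pass without the filter (adjusted p = 0.0562), with the block (adjusted p = 0.0827) or with the treated groups fitted alone (adjusted p = 0.0858), whereas it was -0.35 after quantile normalization (adjusted p = 0.00131), -0.35 under spike-in scaling (adjusted p = 0.0207) and -0.31 in the deposited series values (adjusted p = 0.00223). Tex101, a surface protein of germ cells needed for sperm function, was at 21.0%, 17.0% and 18.2% in DMSO, 15.9%, 19.0% and 16.9% with CHIR99021 and 21.2%, 23.4% and 22.8% with AICAR. Its rise of 0.27 ± 0.10 with AICAR (adjusted p = 0.0426) did not pass without DMSO replicate 2 or 3, CHIR99021 replicate 3, or AICAR replicate 2 or 3, with adjusted p of 0.0595 to 0.136. It was 0.15 after quantile normalization (adjusted p = 0.229) and 0.17 in the deposited series values (adjusted p = 0.191), and did not pass without the filter (adjusted p = 0.0665) or with the block (adjusted p = 0.0842). Its change with CHIR99021 was -0.12 (95% interval -0.34 to 0.10), and the treatments differed by -0.38 ± 0.10 (adjusted p = 0.00886).

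Outside the 32 members, a list of other meiosis genes had 27 of 29 genes on the array tested. With CHIR99021, 2 rose and 16 fell (1 rose without DMSO replicate 1 or 3 or CHIR99021 replicate 2 or 3), where 30.4% and 20.5% of all features did. Their median log2 change was -0.32, the same as that of the members. Meioc, which prolongs meiotic prophase, fell by 2.12 ± 0.08 (adjusted p = 7.93e-07), from 144.1%, 159.6% and 160.0% in DMSO to 35.5%, 33.6% and 37.2%. Meiob, a meiotic single-strand DNA binding protein, fell by 1.25 ± 0.05, from 47.4% to 49.3% in DMSO to 20.0% to 20.4%. Msh4, a crossover factor well above background on 2 of the 3 CHIR99021 arrays, fell by 1.29 ± 0.23, and Kash5, which ties chromosome ends to the cytoskeleton, by 1.12 ± 0.08. With AICAR, 13 of the 27 rose and 8 fell, or 4 under spike-in scaling, where 30.9% and 29.6% of features did. Their median was 0.19. Cntd1, a cyclin-like crossover factor, rose by 2.38 ± 0.16 (adjusted p = 8.52e-06), from 2.32%, 1.96% and 1.96% to 10.8%, 10.9% and 10.5%. It was not well above background on any CHIR99021 array, and its mean there was 8.66-fold below that with AICAR. Tex12, a central element gene, rose by 1.00 ± 0.08 and Mei1, needed for meiotic breaks, by 0.77 ± 0.07. Tex19.1, a gene of germ and stem cells that limits transposons, fell by 1.55 ± 0.06.

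**Figure D5:**
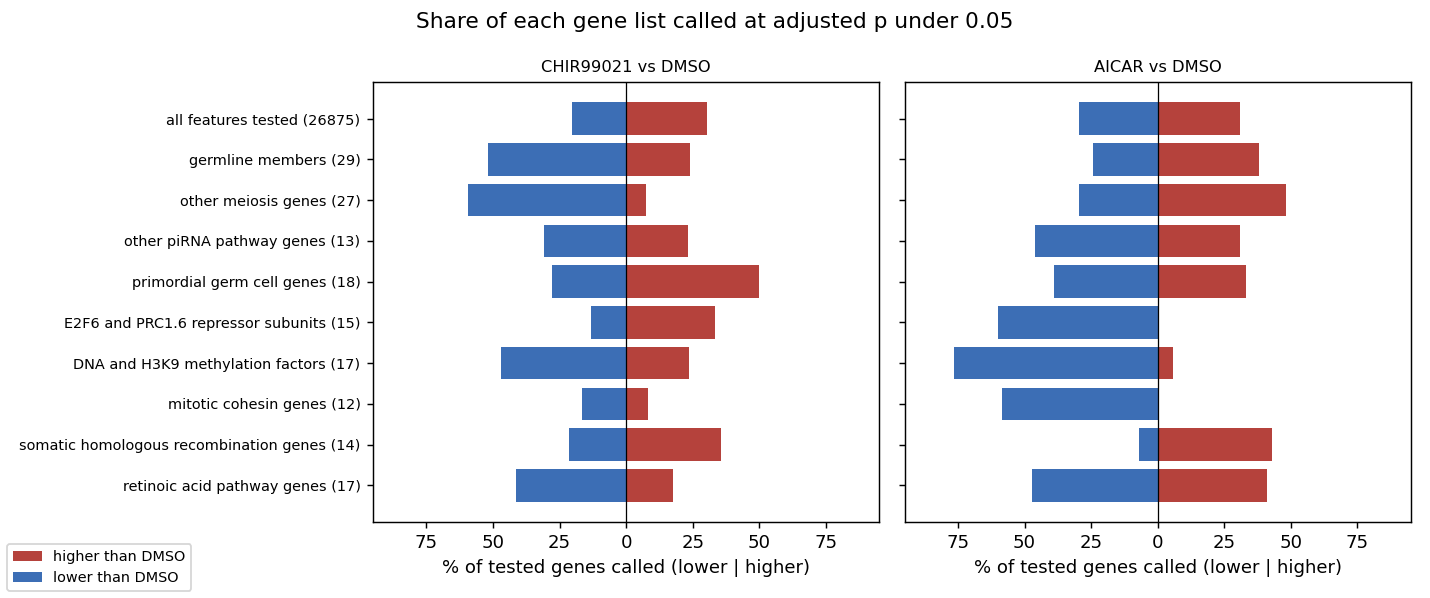
The percent of tested genes in each list that fell (blue, left) or rose (red, right) at adjusted p under 0.05 with CHIR99021 and with AICAR, with the number tested in parentheses and all 26875 features on top. In the first comparison 15 of 29 members and 16 of 27 other meiosis genes lie on the blue side, and in the other 11 of 29 members and 13 of 27 other meiosis genes lie on the red side.

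Of other genes of the piRNA pathway, 13 of 16 were tested. With CHIR99021, 3 rose (1 under spike-in scaling) and 4 fell (2 without CHIR99021 replicate 3), where 30.4% and 20.5% of all features did. With AICAR 4 rose and 6 fell (2 under spike-in scaling), where 30.9% and 29.6% of features did. Tdrd5, a Tudor protein of germ granules, rose by 1.17 ± 0.06 with CHIR99021, and Gtsf1, a partner of Piwi proteins, fell by 0.73 ± 0.06 with CHIR99021 and by 0.93 ± 0.06 with AICAR. With AICAR, Tdrd7 rose by 1.26 ± 0.06 and Tdrd12 fell by 1.49 ± 0.18, both Tudor-domain genes. Of 18 primordial germ cell genes, all tested, 9 rose and 5 fell with CHIR99021 and 6 rose and 7 fell with AICAR. The shares of all features are those given above for the piRNA list. Prdm14, a regulator of germ cell fate and pluripotency, rose by 1.16 ± 0.07 with CHIR99021, and Nanos3, a survival factor of early germ cells, by 0.94 ± 0.07. All AICAR arrays of Prdm14 were also above its DMSO arrays, at 420.9%, 434% and 373.6% against 210.6%, 203.1% and 227%. The largest change of this list with CHIR99021 was the rise of Cxcr4, by 1.38 ± 0.13. With AICAR the largest changes were rises, of Itgb3 by 1.71 ± 0.11 and of Cxcr4 by 1.6 ± 0.13. Dppa3, the maternal factor Stella, fell by 1.57 ± 0.08 with AICAR and Lin28a, an RNA-binding protein gene, by 1.34 ± 0.07.

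The factors known to hold germline promoters silent were read on the same arrays. Dnmt3l, the cofactor of the de novo methyltransferases, was at 6654%, 6733% and 6824% in DMSO, 1354%, 1513% and 1334% with CHIR99021 and 1164%, 1009% and 1010% with AICAR. It fell by 2.27 ± 0.07 with CHIR99021 (adjusted p = 4e-07) and fell by 2.67 ± 0.07 with AICAR (adjusted p = 1.77e-07). Dnmt3b, a de novo methyltransferase, fell by 0.95 ± 0.05 with CHIR99021 and by 1.91 ± 0.05 with AICAR (adjusted p = 5.17e-06 and 1.81e-07). A wider list of 17 DNA and H3K9 methylation factors was also read. It includes Tet1, Tet2 and Tet3, whose enzymes oxidise methylated DNA, and the histone demethylase gene Kdm1a. With CHIR99021, 4 of the 17 rose (2 under spike-in scaling) and 8 fell, where 30.4% and 20.5% of all features did. The falls included Tet1 (-0.54 ± 0.09) and the rises Tet2 (0.38 ± 0.07). With AICAR, 1 rose and 13 fell, where 30.9% and 29.6% of features did. Tet1 (-0.25 ± 0.09) and Kdm1a (-0.15 ± 0.06) were among those that fell. The falls with AICAR numbered 6 under spike-in scaling, 8 after quantile normalization and 8 without DMSO replicate 1. E2f6 was at 547.4%, 608.2% and 563.8% in DMSO, 867.8%, 904.6% and 863.8% with CHIR99021 and 578.8%, 618.4% and 649.4% with AICAR. It rose by 0.62 ± 0.06 with CHIR99021 (adjusted p = 0.000108), with 0.10 ± 0.06 under AICAR (adjusted p = 0.185). Mga fell by 0.48 ± 0.06 with AICAR (adjusted p = 0.000319) and by 0.18 ± 0.06 with CHIR99021 (adjusted p = 0.0441), and Max, with 0.08 ± 0.07 and 0.00 ± 0.07, passed in neither comparison.

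Of 15 E2F6 and PRC1.6 subunits, 5 rose and 2 fell with CHIR99021, where 30.4% and 20.5% of all features did. The 5 were 2 under spike-in scaling and 3 after quantile normalization. The 2 became 0 without DMSO replicate 1 or 3 or CHIR99021 replicate 1, and 1 without DMSO replicate 2 or CHIR99021 replicate 2. With AICAR, 9 of the 15 fell, or 5 under spike-in scaling, where 29.6% of features did. The other 6 did not pass, although 3 rose after quantile normalization. In the direct comparison 10 were higher with CHIR99021 than with AICAR, where 36.2% of features were, and the other 5 did not pass. Under spike-in scaling 4 were higher and 2 lower. These levels of repressor RNA are listed beside those of the members, and their part in the members' changes was not tested.

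Markers of other cell types were read as lists, and a sum over a list follows its brightest probes. Over all features, 30.4% rose and 20.5% fell with CHIR99021, and 30.9% rose and 29.6% fell with AICAR. The stem cell markers were present, as labelled: 12 of 12 were well above background on all 9 arrays, with summed levels of 32800% to 33400% in DMSO, 36200% to 37200% with CHIR99021 and 34800% to 36000% with AICAR. Of 18 spermatid markers, 10 were above background on all DMSO arrays and 8 on none of the 9, among them Acrv1, Odf1, Prm3 and Smcp. Their sum was 110% to 116% in DMSO, 88.7% to 96.6% with CHIR99021 and 115% to 131% with AICAR. Of the 10 tested, 1 rose and 3 fell with CHIR99021 and 6 were not called. With AICAR 2 rose, 0 fell and 8 were not called. Ldhc, a marker of this list and a testis form of lactate dehydrogenase, fell by 0.89 ± 0.09 with CHIR99021 and rose by 0.31 ± 0.09 with AICAR. Of 18 oocyte markers, 10 were above background on all DMSO arrays and 4, such as Bmp15, on none of the 9. Their sums were 260% to 326%, 309% to 323% and 240% to 252%. Zp3 alone read 110.0% to 174.4% in DMSO, 162.0% to 173.3% with CHIR99021 and 77.3% to 92.8% with AICAR. Padi6 was higher with AICAR, at 35.1% to 40.5% against 19.8% to 20.4% in DMSO. Of the 10 oocyte markers tested, 3 rose, 3 fell and 4 were not called with CHIR99021. With AICAR 3 rose, 4 fell and 3 were not called. Of 12 gonadal somatic markers, 8 were above background on all DMSO arrays, and Amh, Fshr, Hsd3b1 and Sox9 on none of the 9. Their sums were 3860% to 4800%, 3490% to 4170% and 3820% to 4530%. Foxl2 alone read 3448% to 4365% in DMSO, 3008% to 3659% with CHIR99021 and 3187% to 3934% with AICAR. Of the 8 tested, 2 rose and 2 fell with CHIR99021, and 3 rose and 2 fell with AICAR, with 1 falling in either comparison when only probes above background on all 9 arrays were tested. Those that fell with CHIR99021 were Cyp11a1 and Inha. Cyp11a1, a steroidogenic enzyme gene, was at least 8.69-fold lower than in DMSO, and Inha, an inhibin subunit gene, fell by 1.70 ± 0.13. The rises with CHIR99021 were of Dhh (0.57 ± 0.07) and Cyp17a1 (0.46 ± 0.11). With AICAR, Dhh (2.71 ± 0.07), Inha (0.69 ± 0.13) and Cyp17a1 (0.37 ± 0.11) rose. Cyp11a1 (-1.41 ± 0.14) and Gata4 (-0.43 ± 0.07) fell with AICAR. Of 13 fibroblast markers, 10 were above background on all DMSO arrays and Lum, Postn and Twist2 on none of the 9, with sums of 311% to 320%, 415% to 462% and 495% to 583%. The sums of the treated groups were higher and single markers went either way. With CHIR99021 3 of the 10 tested rose and 2 fell (1 without any single DMSO array, CHIR99021 replicate 3 or AICAR replicate 2), and with AICAR 5 rose and 4 fell. Pdgfrb rose by 2.13 ± 0.06 and 2.32 ± 0.06, whereas the collagen gene Col1a2 fell by 0.48 ± 0.05 and 1.29 ± 0.05, and Dcn, well above background on 0 AICAR arrays, was at least 4.74-fold lower with AICAR than in DMSO. These genes were chosen after their values were seen. The part of other cell types in the members' changes was not tested.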

How the data were processed

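Total RNA of 9 samples was measured on Agilent arrays with 1 dye, 3 arrays a group. Scanner files deposited by the authors hold linear intensity per spot, made with Feature Extraction 10.7.3.1 per the file headers and 10.7 per the submitters' processing notes. Deposited beside them, the series matrix has log2 values that correlated with the log2 processed signal at 0.99962 to 0.99999. Each of its columns had a median of 5.18 and a 75th percentile of 8.90, with the centring unknown, and it entered as 1 of the alternatives.

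For the analysis, the 75th percentile over an array's 59305 spots that are not controls was subtracted from log2 processed signals. Spots with outlier flags were dropped, and repeated spots averaged. Probes well above background on at least 3 of 9 arrays were kept (37751 of 55681), and the brightest probe of a gene was tested. Symbols came from accessions in RefSeq of GRCm38.p6, which matched 27235 probes. Probes of related genes may share targets. The model (limma 3.58.1, lmFit with eBayes, in R 4.3.3, with files read by data.table in version 1.17.8) held all 9 arrays, and p-values were adjusted by Benjamini-Hochberg over 26875 features. The number of arrays limits the precision. The steps were tested on simulated data.

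All 32 members are named. From each other list, up to 4 called genes with the largest change in each comparison with DMSO were eligible, plus Rarg, Rara, Dnmt3b, Dnmt3l, E2f6, Mga and Max. Some genes eligible under this rule are not named. Of markers, a few are named by level, change or absence. The members and lists were chosen with earlier results of these data known. Samples of the same replicate number did not deviate together, with correlations of -0.056 to 0.088. Alternatives changed the background correction (normexp with an offset of 50, on median signals because the files used hold no mean signal column), the scaling, the filter, the probe rule, the samples fitted and the replicate block.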

Additional observations from a re-analysis of the deposited data

How the results depend on the processing

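Over 18 alternatives, 0 of the members' values that passed the threshold changed sign. The count of members higher in CHIR99021 than in AICAR moved from 6 to 2 under spike-in scaling, which shifts all values between these groups by -0.19. The other counts of called members stayed within 1.5 times of the value reported. Leaving out each array in turn gave 6 to 7 members higher and 15 to 16 lower in CHIR99021 against DMSO, 9 to 11 and 7 to 9 in AICAR against DMSO, and 5 to 6 and 16 to 17 in CHIR99021 against AICAR. With the replicate number as a block the counts were 6 and 15, 10 and 7, and 6 and 17, though these numbers did not pair the samples. Normexp moved the changes of dim genes toward 0, by the construction of its offset. With 3 arrays a group on a slide of their own, neither slide effects nor small changes can be separated. Members not well above background have no fold change.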
